A study of Rattus norvegicus with 36 samples.

Results

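Intermediate filament genes were followed through H9C2 cells, a rat cardiac myoblast line, transfected with miR-125b or its isomiRs under 2 oxygen conditions. 10 genes were selected by symbol, with their CPM over the groups already known when they were chosen, and no value was required of them: the keratin genes *Krt7*, *Krt8*, *Krt18* and *Krt19*, the vimentin-type and muscle filament genes *Vim*, *Des*, *Nes* and *Synm*, and the lamin genes *Lmna* and *Lmnb1*. Of these, 8 were among the 24275 genes listed in the tables, *Krt19* and *Nes* were not, and 7 passed the filter on low counts. *Krt18* passed in no comparison, so it has no test with the filter. Because the CPM of the members was known at the choice, none of their p-values below is independent support, in any comparison.

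Each library came from cells given 25 nmol/L of a mimic control (MC), of a miR-125b mimic, or of an isomiR mimic, and then kept in hypoxia or normoxia. The isomiR mimics are Plus A, with an added A at the 3′ end, and 3 trimmed ones, which lack there the bases in their names: Trim A, Trim AG, Trim AGU. Counts were used for 33 of 36 libraries, 3 in each of 11 groups: hypoxia with each of the 6 mimics and normoxia with each except MC. Normoxia MC entered no test, since its libraries were not analysed here. Per the study's methods, hypoxic cells were in serum-free low-glucose medium and normoxic cells in fresh medium, so oxygen and medium cannot be told apart. The labels do not say whether the 3 libraries of a group came from separate cultures, and p-values measure the spread between these libraries.

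The mimics differ only at the 3′ end, and all 5 share the seed, which is why their sequences are shown first. They were built from mature rno-miR-125b-5p of RefSeq (GRCr8, chr11:29732588-29732609, plus strand) by the change each label names, and capitals mark the seed, bases 2 to 8. Lengths ran from 19 bases in Trim AGU to 23 in Plus A.
miR-125b: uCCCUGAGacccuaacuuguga
Plus A: uCCCUGAGacccuaacuugugaa
Trim A: uCCCUGAGacccuaacuugug
Trim AG: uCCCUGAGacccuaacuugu
Trim AGU: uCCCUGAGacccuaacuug

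Intermediate filaments are rope-like polymers of coiled-coil proteins that give cells and nuclei mechanical strength. Keratins form filaments only as pairs of a type I with a type II chain, are typical of epithelia and are also made in early heart and mesothelium; vimentin, desmin, nestin and synemin are typical of mesenchymal and muscle cells, and desmin ties sarcomeres together in heart muscle. Lamins line the inside of the nuclear envelope, with A-type lamins from *Lmna* and B-type lamins from *Lmnb1* and *Lmnb2*.

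Levels are given as CPM, the count scaled to a fixed library total, and levels are compared between genes only as FPKM, which also divides by gene length. Total counts per library ran from 28361216 to 42672584, with a median of 29923694. The 3 Hypoxia Trim AG libraries held 39940087 counts or more, and every other library 34505938 or fewer. 3 libraries stood apart. In log2 CPM over 14164 genes, replicate 1 of Normoxia Plus A lay nearer to Normoxia miR-125b replicates 2 and 3 (root mean square distance 0.285) than to its own group (0.332), and replicate 1 of Normoxia miR-125b lay nearer to Normoxia Plus A replicates 2 and 3 (0.283) than to its own group (0.334). In Hypoxia Trim AGU the mean distance within the group was 0.647, against 0.275 to 0.357 in the other groups, and its replicate 2 lay farthest from its group mates (0.783); it held 16981 detected genes, against 18342 or more in each other library. Calls that change without these libraries are given with and without them. Other libraries also moved the number of genes called when left out, among them Hypoxia Trim A replicate 1, as given in the last section. For the label of cardiac myoblast, 10 of 12 muscle markers averaged at least 1 CPM, and of 10 epithelial markers only *Ovol1* did. By their median over the libraries, the muscle markers *Actc1* and *Csrp3*, which are among these 10, were below 1 CPM, at 0.486 and 0.565. Of 6 fibroblast markers 5 averaged at least 1 CPM, among them *Col1a1*, a collagen gene, and *Postn*, the periostin gene. So did 3 of 4 mesothelial markers. Summed over the list, fibroblast markers were at 6777 to 30945 CPM per library and muscle markers at 169 to 1287 CPM. These sums are not scaled by gene length, so the 2 lists are not compared by them. *Col1a1* alone was at 5403 to 27702 CPM.

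By median FPKM over the 18 hypoxic libraries, the order of levels was *Vim* (1655), *Lmna* (299.9), *Krt8* (59.4), *Lmnb1* (11.7), *Krt7* (10.6), *Synm* (0.750), *Des* (0.659) and *Krt18* (0.0968). Over the 15 normoxic libraries it was *Vim* (1457), *Lmna* (307), *Krt7* (54.2), *Lmnb1* (43.3), *Krt8* (21.2), *Synm* (2.73), *Des* (1.48) and *Krt18* (0.0768). *Vim* and *Lmna* led in both, and *Krt7* and *Krt8* changed places.

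*Krt7* and *Krt8* both encode type II keratins, and the tables place them on chromosome 7 at 143059764 to 143075907 and at 143596511 to 143603803, in a genome build not given in the sources used here. They moved in opposite directions between the oxygen conditions. *Krt7* was low in every hypoxic group, with 22.1, 21.8 and 22.2 CPM in MC, 24.4, 25.7 and 28.9 in miR-125b, 19.0, 21.5 and 20.8 in Plus A, 24.4, 25.1 and 22.3 in Trim A, 23.2, 23.6 and 20.9 in Trim AG, and 19.0, 25.8 and 22.2 in Trim AGU. In normoxia it was at 109, 108 and 108 CPM in miR-125b, 116, 122 and 116 in Plus A, 125, 106 and 117 in Trim A, 97.6, 91.5 and 89.4 in Trim AG, and 131, 102 and 125 in Trim AGU. The lowest normoxic library (89.4 CPM) was above the highest hypoxic one (28.9 CPM).

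*Krt8* had higher group means in hypoxia, though Hypoxia Trim AG reached down to Normoxia Trim AGU, and it differed between mimics in hypoxia. It was at 201, 192 and 192 CPM in Hypoxia MC, 141, 137 and 146 in miR-125b, 89.2, 106 and 104 in Plus A, 81.7, 77.5 and 81.6 in Trim A, 56.8, 48.4 and 57.4 in Trim AG, and 147, 171 and 158 in Trim AGU. No 2 of these 6 groups overlapped: the order was MC, Trim AGU, miR-125b, Plus A, Trim A and Trim AG. This is a description of 3 libraries a group, and the share of all genes without overlap is not given. Trim AGU and miR-125b lay close, with the lowest library of the first at 147 CPM and the highest of the second at 146. In the tests below *Krt8* was called for Trim AGU against neither MC nor miR-125b. In normoxia it was at 38.9, 41.7 and 41.5 CPM in miR-125b, 43.2, 33.5 and 35.8 in Plus A, 37.6, 43.9 and 32.8 in Trim A, 41.4, 41.1 and 36.2 in Trim AG, and 49.7, 40.7 and 42.1 in Trim AGU, and neighbouring groups overlapped throughout.

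**Figure D1:**
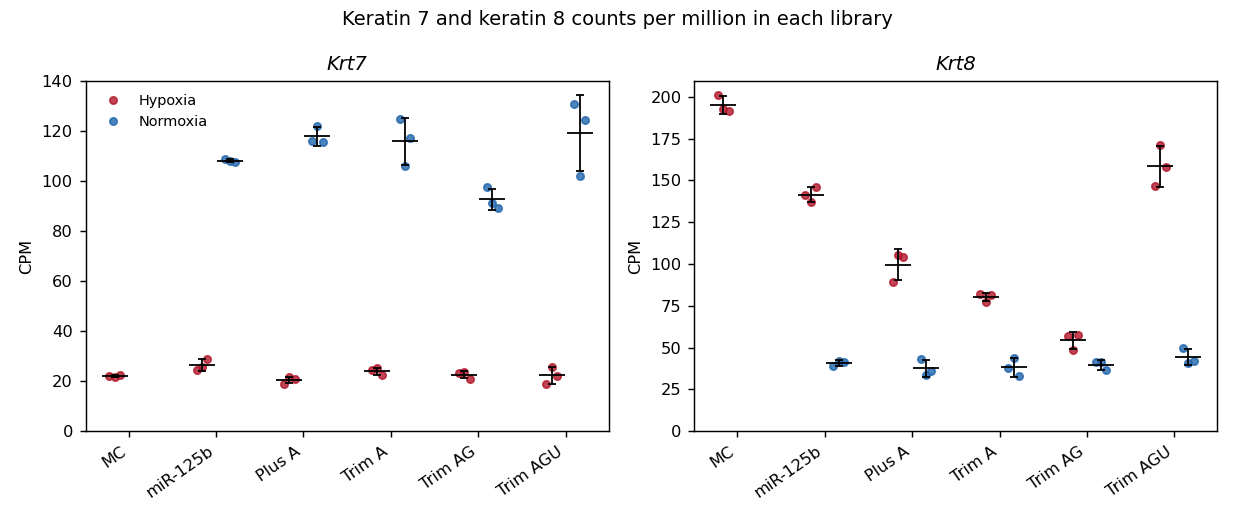
CPM of *Krt7* (left) and *Krt8* (right) in each library by mimic, red for hypoxia and blue for normoxia; bars are the mean ± SD (n = 3), and Normoxia MC is not shown. *Krt7* lies at 89.4 CPM or above in normoxia and 28.9 CPM or below in hypoxia, and *Krt8* is highest in hypoxia in MC (195 CPM), then Trim AGU (159 CPM), and lowest in Trim AG (54.2 CPM).

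Scaled by length, *Krt8* was above *Krt7* in 18 of 18 hypoxic libraries, and *Krt7* was above *Krt8* in 15 of 15 normoxic libraries. The ratio of *Krt8* to *Krt7* FPKM ran from 2.17 to 9.63 in hypoxia (median 5.33) and from 0.290 to 0.476 in normoxia (median 0.402). Within hypoxia its median was 9.35 in MC, 7.52 in Trim AGU, 5.64 in miR-125b, 5.20 in Plus A, 3.55 in Trim A and 2.59 in Trim AG.

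**Figure D2:**
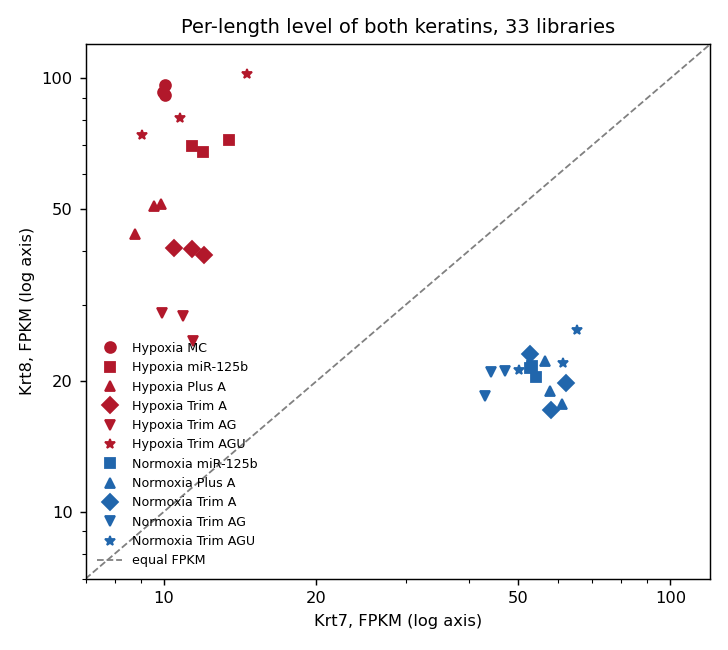
FPKM of *Krt8* (vertical, log axis) against FPKM of *Krt7* (horizontal, log axis) in the 33 libraries, with colour for oxygen, marker shape for mimic and a dashed line of equal FPKM. All 18 hypoxic libraries lie above the line and all 15 normoxic libraries below it.

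*Krt18*, which encodes the type I partner that *Krt8* commonly has in simple epithelia, was close to absent. Its counts ran from 0 to 15 per library, or 0 to 0.515 CPM, and 5 libraries held 0 counts, which allows up to 3 counts or 0.106 CPM at the lowest total. Fitted with no filter on low counts, it was called in 2 of 22 comparisons, lower for Plus A (adjusted p = 0.0269) and Trim AG (adjusted p = 0.0168) against MC in hypoxia, by edgeR; at these counts no fold is given. Other type I keratins were low too: *Krt10* ran from 0.974 to 3.56 CPM, while *Krt14*, *Krt15*, *Krt17*, *Krt20* and *Krt23* were highest at 0.315, 0.194, 0.139, 0.978 and 0.240 CPM. The summed CPM of the 10 epithelial markers was 2.34 to 5.21 in any library.

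*Vim*, which encodes the filament protein of mesenchymal cells, ran from 2468 to 4624 CPM. In hypoxia it was at 3744, 3790 and 3670 CPM in MC, 3216, 3181 and 3138 in miR-125b, 2797, 2681 and 2684 in Plus A, 3021, 3160 and 3208 in Trim A, 2815, 2698 and 2737 in Trim AG, and 3445, 4624 and 3593 in Trim AGU. The highest value was Hypoxia Trim AGU replicate 2, the library that stood apart. In normoxia the group means ran from 2609 ± 19.0 CPM in Trim AG to 2813 ± 77.2 in Trim A (SD, n = 3), and all neighbours in that order overlapped.

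*Des*, the muscle filament gene, was near the lower limit, at 27 to 143 counts. It was at 1.98, 1.65 and 1.75 CPM in Hypoxia MC, 1.51, 1.87 and 1.42 in miR-125b, 1.44, 0.910 and 0.938 in Plus A, 1.19, 0.855 and 0.985 in Trim A, 1.60, 1.55 and 1.55 in Trim AG, and 1.31, 1.54 and 1.41 in Trim AGU. In normoxia it was at 2.64, 2.58 and 2.71 in miR-125b, 3.21, 1.82 and 1.86 in Plus A, 2.93, 3.26 and 3.38 in Trim A, 4.03, 4.98 and 4.26 in Trim AG, and 3.74, 3.45 and 3.14 in Trim AGU. Only Plus A in normoxia reached down to the range of Hypoxia MC. *Synm*, which encodes synemin, a partner of desmin and vimentin filaments, was at 3.61 to 9.78 CPM in hypoxia and 15.1 to 26.1 CPM in normoxia.

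*Lmna* differed little, at 884 to 1188 CPM over all libraries, with group means from 923 in Hypoxia MC to 1113 in Hypoxia Trim AGU. *Lmnb1* differed with both oxygen and mimic. In hypoxia it was at 21.4, 21.3 and 17.8 CPM in MC, 25.1, 27.0 and 24.8 in miR-125b, 23.1, 20.2 and 19.6 in Plus A, 27.3, 24.3 and 27.1 in Trim A, 52.0, 42.6 and 41.1 in Trim AG, and 46.9, 22.1 and 36.1 in Trim AGU. In normoxia it was at 50.6, 78.2 and 77.2 in miR-125b, 77.1, 51.1 and 50.8 in Plus A, 90.6, 90.5 and 86.3 in Trim A, 167, 152 and 162 in Trim AG, and 156, 138 and 150 in Trim AGU. Replicate 1 of Normoxia miR-125b had the level of Plus A replicates 2 and 3, and replicate 1 of Normoxia Plus A that of miR-125b replicates 2 and 3. Trim AG and Trim AGU stood above every other group in normoxia.

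**Figure D3:**
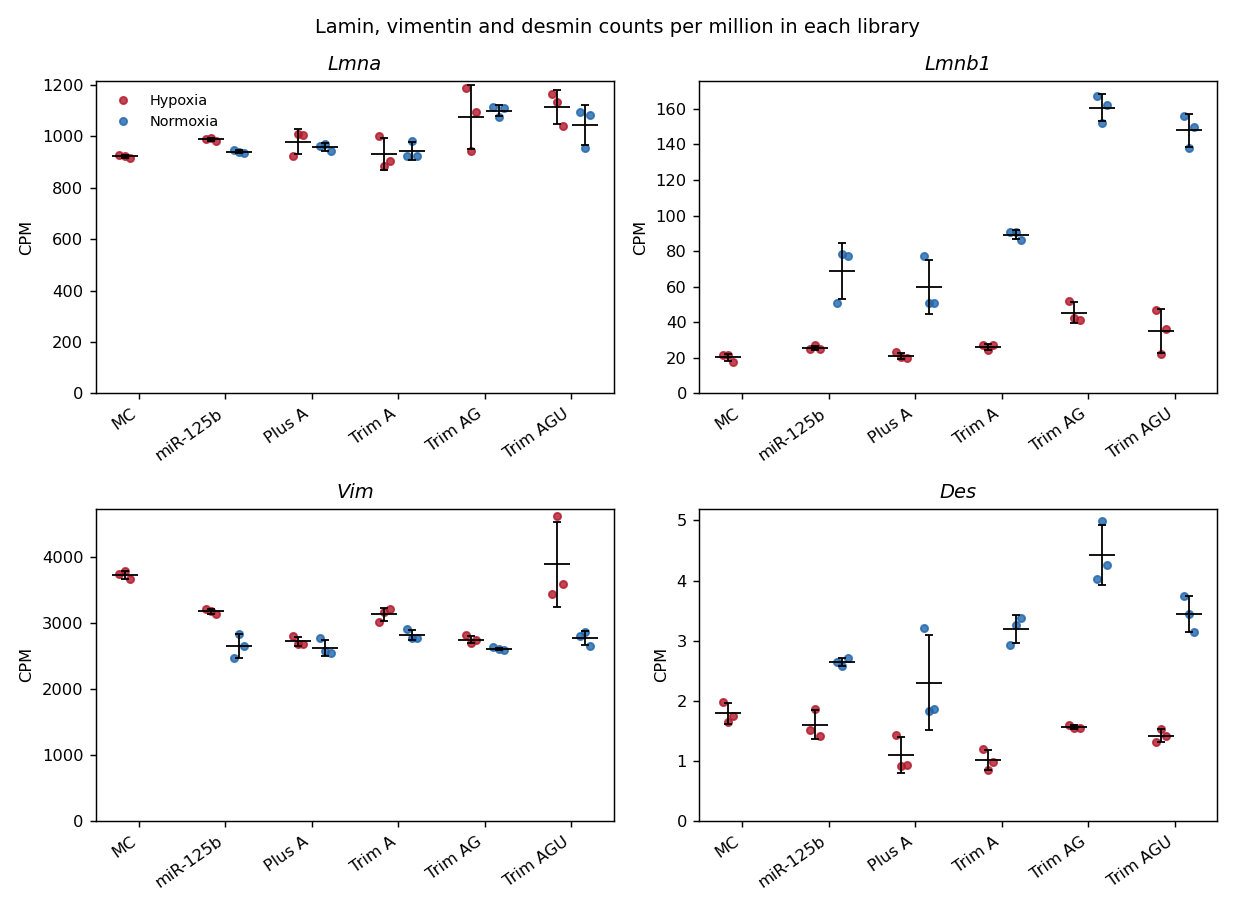
CPM of *Lmna*, *Lmnb1*, *Vim* and *Des* in each library by mimic, red for hypoxia and blue for normoxia, with the mean ± SD (n = 3) and axes from 0. *Lmnb1* is at 138 CPM or above in Normoxia Trim AG and Trim AGU, while *Lmna* stays between 884 and 1188 CPM.

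The 300-base windows around the starts of *Krt8* and *Lmnb1* are printed because these genes moved in opposite directions with oxygen. They come from RefSeq (GRCr8) and span 250 bases before to 50 after the start; 7 of the 8 listed genes had an entry, and *Krt7* had none. Capitals mark the letters searched on both strands: ACGTG, the core of the hypoxia response element, with its variant GCGTG, 1 or both found in 41.6% of 33469 promoters; TATAAA, which places the start of transcription in some promoters, in 14.2%; and TTTGAA, a cell cycle homology region, in 18.3%. *Krt8* (chr7:135010290-135010589, minus strand) held TATAAA on both strands, overlapping, and no other motif. *Lmnb1* (chr18:52373689-52373988, plus strand) held 3 matches to the hypoxia response core, 2 of them overlapping on opposite strands, and 1 TTTGAA. *Synm* held 1 hypoxia response core and *Vim* 1 TATAAA, and *Krt18*, *Des* and *Lmna* held none. These are matches of letters only.
Krt8: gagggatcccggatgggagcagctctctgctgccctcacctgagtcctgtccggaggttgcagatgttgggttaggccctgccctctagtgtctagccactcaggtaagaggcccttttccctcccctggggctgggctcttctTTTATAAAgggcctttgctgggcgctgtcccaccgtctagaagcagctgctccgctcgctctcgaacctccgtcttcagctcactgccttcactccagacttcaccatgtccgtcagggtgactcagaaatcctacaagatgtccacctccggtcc
Lmnb1: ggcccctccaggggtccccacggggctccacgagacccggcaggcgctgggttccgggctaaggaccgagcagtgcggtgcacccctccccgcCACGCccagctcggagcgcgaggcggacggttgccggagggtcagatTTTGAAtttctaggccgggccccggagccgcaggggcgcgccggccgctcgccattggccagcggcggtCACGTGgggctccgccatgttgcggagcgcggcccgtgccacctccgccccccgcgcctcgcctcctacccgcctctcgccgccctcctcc

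Hypoxia was compared with normoxia within each mimic. By edgeR's quasi-likelihood test, a call needed a change of at least 1.5-fold and a p below 0.05 after Benjamini-Hochberg adjustment over all genes tested. Called were 5 of 7 tested members in miR-125b (20.9% of all genes tested), 5 of 7 in Plus A (22.8%), 5 of 7 in Trim A (26.5%), 4 of 7 in Trim AG (32.8%) and 5 of 7 in Trim AGU (27.0%). The median log2 fold change of these 7 was -0.80, -1.17, -1.73, -1.49 and -1.23 in that order, against 0.00 to 0.02 over all genes tested.

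*Krt7* fell in hypoxia in all 5 mimics, by 2.12 ± 0.07 (SE) on the log2 scale in miR-125b (adjusted p = 8.55e-08), 2.64 ± 0.07 in Plus A (adjusted p = 2.42e-08), 2.35 ± 0.09 in Trim A (adjusted p = 6.69e-07), 2.03 ± 0.09 in Trim AG (adjusted p = 7.14e-07) and 2.36 ± 0.20 in Trim AGU (adjusted p = 0.000367). *Krt8* rose by 1.72 ± 0.05 in miR-125b (adjusted p = 6.43e-08), 1.30 ± 0.10 in Plus A (adjusted p = 4.96e-06), 1.00 ± 0.11 in Trim A (adjusted p = 0.000124) and 1.89 ± 0.16 in Trim AGU (adjusted p = 0.000384). In Trim AG its difference was 0.46 ± 0.09 (adjusted p = 0.00263), under the fold threshold, though the groups did not overlap.

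*Synm* and *Lmnb1* were each called lower in all 5. The log2 fold change of *Synm* ran from -1.57 ± 0.15 in Plus A (adjusted p = 2.01e-05) to -2.22 ± 0.24 in Trim AGU (adjusted p = 0.000868), and that of *Lmnb1* from -1.503 ± 0.15 in miR-125b (adjusted p = 2.97e-05) to -2.06 ± 0.23 in Trim AGU (adjusted p = 0.000919). Without replicate 1 of the normoxic group *Lmnb1* was at -1.68 ± 0.05 in miR-125b and -1.42 ± 0.08 in Plus A, and without Hypoxia Trim AGU replicate 2 at -1.86 ± 0.14 in Trim AGU; the calls of the 5 members in these 3 mimics were kept without those libraries. *Des* was also called lower in all 5, from -0.80 ± 0.18 in miR-125b (adjusted p = 0.00523) to -1.73 ± 0.20 in Trim A (adjusted p = 0.000216). In Trim AGU the call of *Des* was lost without Normoxia Trim AGU replicate 1 (adjusted p = 0.0519). Beside *Des*, muscle markers went both ways: 6 were called higher and 1 lower of 10 tested in miR-125b (median 0.66), 4 and 1 of 9 in Plus A (median 0.48), 1 and 2 of 10 in Trim A (median -0.44), 2 and 5 of 10 in Trim AG (median -0.74) and 2 and 2 of 10 in Trim AGU (median 0.65). Their part in the *Des* result was not tested. *Vim* and *Lmna* were called in none: *Vim* differed by -0.06 to 0.54 and *Lmna* by -0.10 to 0.14. Without Hypoxia Trim AGU replicate 1, *Vim* was called in Trim AGU (adjusted p = 0.0466), and without replicate 2 its difference there was 0.32 ± 0.12 in place of 0.54 ± 0.20. In bulk RNA, fewer cells of a type and less RNA per cell cannot be told apart.

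**Figure D4:**
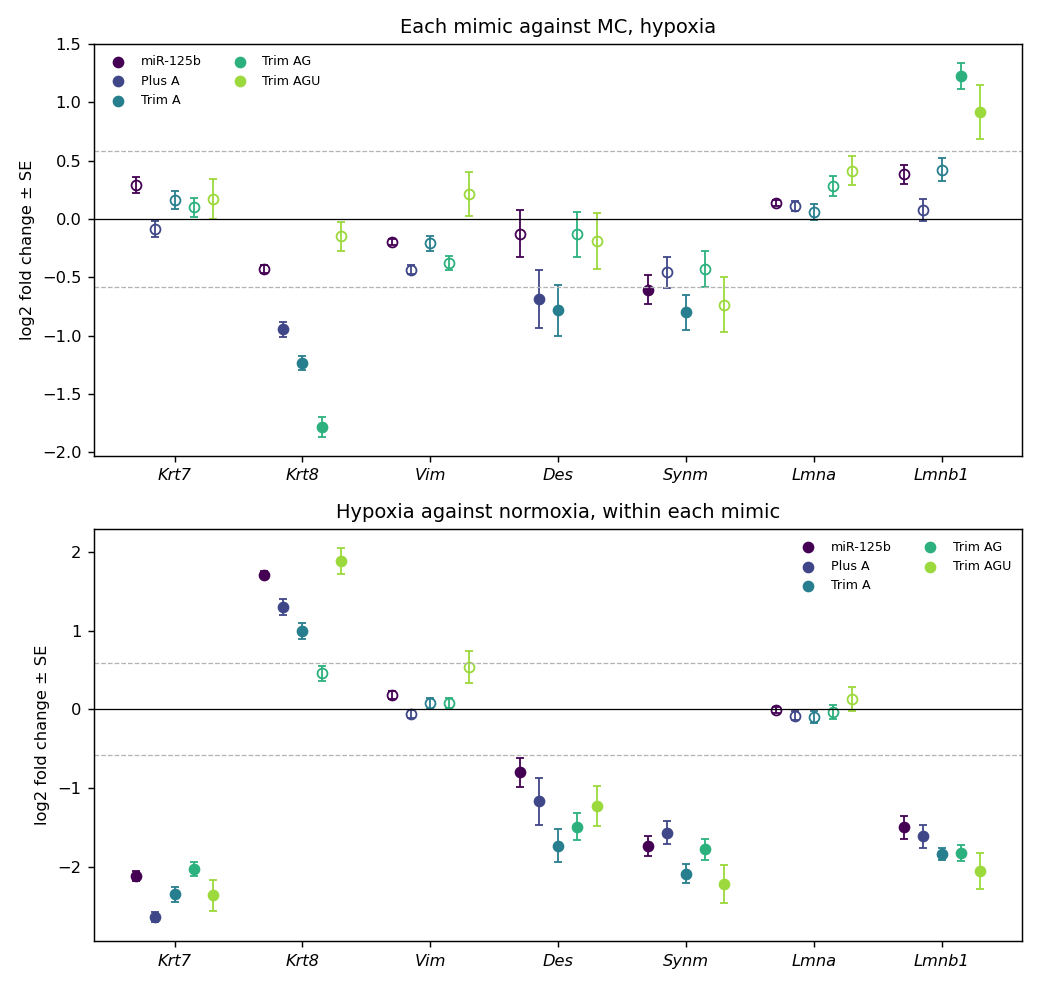
Log2 fold change ± SE of the 7 tested genes for each mimic against MC in hypoxia (top) and for hypoxia against normoxia within each mimic (bottom); filled points were called, open points were not, and dashed lines mark a 1.5-fold change. *Krt7* and *Krt8* lie on opposite sides of 0 in the lower panel, and *Krt8* reaches -1.78 in Trim AG in the upper one.

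Each mimic was then compared with MC in hypoxia; these 5 comparisons share the MC libraries. Called were 1 of 7 tested members for miR-125b (21.9% of all genes tested), 2 of 7 for Plus A (24.8%), 3 of 7 for Trim A (28.1%), 2 of 7 for Trim AG (37.2%) and 1 of 7 for Trim AGU (23.8%). The median of the 7 was -0.13, -0.43, -0.21, -0.13 and 0.17, against -0.02 to 0.00 over all genes.

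*Krt8* fell by 0.95 ± 0.06 for Plus A (adjusted p = 1.02e-06), 1.24 ± 0.06 for Trim A (adjusted p = 6.93e-06) and 1.78 ± 0.08 for Trim AG (adjusted p = 1.25e-06). For miR-125b its difference was -0.43 ± 0.04 (adjusted p = 1.68e-06), under the fold threshold, and for Trim AGU -0.15 ± 0.13 (adjusted p = 0.402), or -0.28 ± 0.08 without Hypoxia Trim AGU replicate 2 (adjusted p = 0.0173). The summed CPM of 4 mesothelial markers was 33.2 to 34.4 in Hypoxia MC, 25.7 to 28.0 in miR-125b, 22.8 to 24.3 in Plus A, 17.3 to 24.4 in Trim A, 12.5 to 20.4 in Trim AG and 18.9 to 21.2 in Trim AGU. Most of this sum was *Msln*, which ran from 11.4 to 29.3 CPM over all libraries. *Upk3b*, *Wt1* and *Lrrn4* were highest at 5.14, 4.26 and 0.586 CPM. Of 3 mesothelial markers tested, 1 was called higher and 1 lower for miR-125b, and likewise for Plus A. With the trimmed isomiRs 0 were called higher, and those called lower were 1 (Trim AGU), 2 (Trim AG) and 2 (Trim A). The part of these markers in the *Krt8* result was not tested.

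*Lmnb1* rose by 1.23 ± 0.11 for Trim AG (adjusted p = 3.28e-05) and by 0.92 ± 0.23 for Trim AGU (adjusted p = 0.0265). The Trim AGU call was lost without Hypoxia Trim AGU replicate 3 or without any 1 of the 3 MC libraries (adjusted p up to 0.112), and without replicate 2 the difference was 1.12 ± 0.13. *Synm* fell by 0.61 ± 0.13 for miR-125b (adjusted p = 0.00167) and 0.80 ± 0.15 for Trim A (adjusted p = 0.00271). The first call was lost without Hypoxia miR-125b replicate 3 or Hypoxia MC replicate 3. For Trim AGU *Synm* differed by -0.74 ± 0.23 (adjusted p = 0.054), and it was called without Hypoxia Trim AGU replicate 1 or 2, by DESeq2 and with all libraries in 1 fit.

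*Des* fell by 0.69 ± 0.25 for Plus A (adjusted p = 0.0388) and 0.78 ± 0.22 for Trim A (adjusted p = 0.0171). The Plus A call was lost by DESeq2 (adjusted p = 0.0755) and without Hypoxia Plus A replicate 2 or 3 or any MC library, and the Trim A call without Hypoxia Trim A replicate 2 or Hypoxia MC replicate 1. Beside these, the summed CPM of 12 muscle markers was 1247 to 1287 in Hypoxia MC and 169 to 286 in the other hypoxic groups. 9 or 10 of 10 tested muscle markers were called lower for each mimic, against 21.9% to 37.2% of all genes called in either direction. For Plus A, Trim A and Trim AG against miR-125b in hypoxia 9 were tested. A marker may therefore have passed the filter here only through the high MC libraries. The part of the muscle markers in the *Des* result was not tested. *Krt7*, *Vim* and *Lmna* were called for no mimic. *Krt7* differed by -0.09 to 0.29 and *Lmna* by 0.06 to 0.42, all under the fold threshold. For miR-125b they differed by 0.29 ± 0.07 (adjusted p = 0.00313) and 0.14 ± 0.02 (adjusted p = 0.000665). The differences of *Vim* ran from -0.43 ± 0.04 for Plus A (adjusted p = 6.26e-06) to 0.21 ± 0.19 for Trim AGU (adjusted p = 0.419), and the last was -0.004 ± 0.07 without Hypoxia Trim AGU replicate 2.

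Fibroblast markers moved in the same comparisons. Called lower were 3 of 6 tested for miR-125b, 3 of 5 for Plus A, 3 of 5 for Trim A, 5 of 6 for Trim AG and 3 of 5 for Trim AGU, and 1 was called higher for miR-125b and 1 for Plus A. Over all genes tested, 21.9%, 24.8%, 28.1%, 37.2% and 23.8% were called in that order, in either direction. *Postn* fell by 2.04 for miR-125b (adjusted p = 4.69e-12) and fell by 2.52 for Trim AG (adjusted p = 1.26e-07), while *Col1a1* rose by 0.76 for miR-125b (adjusted p = 4.81e-09). The summed CPM of the list was 20869 to 21545 in Hypoxia MC, 29261 to 30945 in miR-125b, 26426 to 27895 in Plus A, 14234 to 26531 in Trim A, 6777 to 13808 in Trim AG and 11106 to 20211 in Trim AGU. This sum mostly follows *Col1a1*, at 5403 to 27702 CPM over all libraries, while *Col1a2* and *Postn* reached 4542 and 3104 CPM. The part of these markers in the differences of *Krt8*, *Vim*, *Synm* and *Lmnb1* was not tested.

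The isomiRs were compared with miR-125b, in hypoxia and in normoxia, with the miR-125b libraries of each condition shared by 4 comparisons. In hypoxia 0 of 7 tested members were called for Plus A (2.03% of all genes tested), where edgeR gave 4 an unadjusted p below 0.05 (31.2% of all genes) and DESeq2 called 0. The adjusted p of these 4 was also below 0.05, and each missed the fold threshold. *Krt8* was -0.52 ± 0.07 there (adjusted p = 0.00154), under the fold threshold. For Trim A 1 of 7 was called (0.873%): *Krt8*, at -0.81 ± 0.06. Like the others here, this difference comes from CPM known when the genes were chosen and is a description. *Des* was called there only without Hypoxia Trim A replicate 1. For Trim AG 2 of 7 were called (19.3%): *Krt8* fell by 1.37 ± 0.08 (adjusted p = 2.02e-05) and *Lmnb1* rose by 0.84 ± 0.10 (adjusted p = 0.000387). For Trim AGU 0 of 7 were called (3.75%), with 1 at an unadjusted p below 0.05 (24.5% of all genes) and 0 by DESeq2. *Lmnb1* was at 0.52 ± 0.22 (adjusted p = 0.203) and was called only without Hypoxia Trim AGU replicate 2, at 0.72 ± 0.11 (adjusted p = 0.00486).

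In normoxia 0 of 7 were called for Plus A (0.00% of all genes tested), with 1 at an unadjusted p below 0.05 (2.73% of all genes) by edgeR and 0 by DESeq2; over all genes DESeq2 called 1. Without replicate 1 of both groups, *Lmnb1* was called at -0.59 ± 0.05 (adjusted p = 0.000854), in place of -0.20 ± 0.20, and the genes called went from 0 to 166. For Trim A 0 of 7 were called (0.414%), with 1 at an unadjusted p below 0.05 (18.7% of all genes) and 0 by DESeq2. For Trim AG 2 of 7 were called (13.9%): *Lmnb1* rose by 1.18 ± 0.14 (adjusted p = 0.000221) and *Des* by 0.70 ± 0.15 (adjusted p = 0.0063). For Trim AGU 1 of 7 was called (11.4%): *Lmnb1* rose by 1.10 ± 0.15 (adjusted p = 0.00112). Without Normoxia miR-125b replicate 1 *Lmnb1* was at 1.00 ± 0.06 for Trim AG and 0.92 ± 0.09 for Trim AGU, and both calls were kept. Beside *Des*, 5 muscle markers were called higher and 0 lower of 10 tested for Trim AG (median 0.73), and their part in its difference was not tested. *Krt8* differed by -0.11 to 0.11 in the 4 normoxic comparisons.

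Whether each isomiR's difference from miR-125b changed with oxygen was tested as an interaction; the 4 tests share the miR-125b libraries of both conditions. Called were 0 of 7 tested members for Plus A (0.0193% of all genes tested), 1 of 7 for Trim A (0.605%), 2 of 7 for Trim AG (11.3%) and 0 of 7 for Trim AGU (0.966%). *Krt8* was more negative in hypoxia by 1.29 ± 0.10 for Trim AG (adjusted p = 1.44e-05), and this call was kept with each of the 12 libraries left out. For Trim A the member called was *Krt8*, with an interaction of -0.72 ± 0.12. Like the other interactions here, it comes from CPM known when the genes were chosen and is a description. The Trim A call was lost under the replicate block, where 0 genes were called in all. It was lost too in 8 of 12 fits with 1 library left out, among them every miR-125b library and Hypoxia Trim A replicates 2 and 3. For Trim AG the interaction of *Des* was -0.73 ± 0.23 (adjusted p = 0.0371), and was called in 3 of 12 such fits: it was lost without either replicate 2 or 3 of Trim AG in either condition, Hypoxia miR-125b replicates 1 or 2, or any Normoxia miR-125b library. It was also lost by DESeq2, with no filter, with all libraries in 1 fit and under the replicate block, each of which called *Krt8* alone. Of 10 tested muscle markers 6 were called lower and 1 higher in that interaction, and their part in the *Des* result was not tested. *Des* for Trim A was called only without Hypoxia Trim A replicate 1, and *Synm* for Trim AGU only without Hypoxia Trim AGU replicate 1. For Plus A edgeR gave 3 members an unadjusted p below 0.05 (16.1% of all genes) and DESeq2 called 0, and without replicate 1 of both normoxic groups 0 members and 4 genes in all were called; for Trim AGU both member numbers were 0 (22.1% of all genes had an unadjusted p below 0.05).

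For Normoxia MC the authors gave a group mean, beside that of Normoxia Plus A, with no libraries and no test here. In these normalised means *Des* was at 68.0 in Plus A and 157 in MC, *Lmnb1* at 1767 and 2653, and *Krt8* at 1112 and 1473. *Krt7* was at 3504 and 2936, *Synm* at 511 and 615, *Vim* at 77991 and 76602, and *Lmna* at 28472 and 28179. *Des* and *Lmnb1* had the lowest ratios of Plus A to MC among these 7, at 0.433 and 0.666. *Des* was near the lower limit, and the Plus A mean includes replicate 1, which stood apart. In replicates 1, 2 and 3 of Normoxia Plus A, *Lmnb1* was at 77.1, 51.1 and 50.8 CPM and *Des* at 3.21, 1.82 and 1.86.

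Other intermediate filament genes were described from a list of 27, of which 19 were listed in the tables. Against MC in hypoxia, 2 were called higher and 2 lower of 10 tested for miR-125b (21.9% of all genes); *Nefh*, a neurofilament gene, fell by 1.18 (adjusted p = 9.87e-09), and *Lmnb2*, the other B-type lamin, fell by 0.65 (adjusted p = 8.42e-07). In normoxia *Lmnb2* rose by 1.49 for Trim AG (adjusted p = 9.45e-06) and by 1.21 for Trim AGU (adjusted p = 0.00032) against miR-125b, so both B-type lamin genes were called higher there. *Lmnb2* also fell in hypoxia against normoxia by 0.71 in miR-125b (adjusted p = 0.000149) and 1.38 in Trim AG (adjusted p = 1.4e-05). *Krt80*, a type II keratin, rose by 1.17 for Trim AG against MC in hypoxia (adjusted p = 0.000291), where *Krt8* fell. The symbol LOC100910255, called nestin-like in the tables, is carried by 2 identifiers and was not counted as *Nes*. The higher of them was at 182 to 190 CPM in Hypoxia MC, 42.0 to 111 in the other hypoxic groups and 81.8 to 242 in normoxia. The lower was at 1.54 to 39.6 CPM in hypoxia and 8.30 to 47.1 in normoxia. No test of either is given here.

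Genes that anchor filaments were described from a list of 15 cytolinkers and desmosome genes. For miR-125b against MC in hypoxia 1 was called higher and 4 lower of 10 tested (21.9% of all genes): *Dst*, a cytolinker, fell by 0.95 (adjusted p = 1.94e-07), *Jup*, the plakoglobin gene, by 0.67 (adjusted p = 2.42e-08), *Macf1*, which links actin and microtubules, by 0.60 (adjusted p = 4.28e-07) and *Pkp2*, a desmosomal plakophilin, by 0.59 (adjusted p = 0.00318). *Jup* was also called lower for each of the other mimics against MC, by 0.64 to 1.04. In hypoxia against normoxia *Jup* and *Pkp2* fell in all 5 mimics, *Pkp2* by 0.77 in Trim AG (adjusted p = 0.00045) to 1.43 in Trim AGU (adjusted p = 0.0043). Called higher and lower over the list were 2 and 2 of 10 in miR-125b (20.9% of all genes) and 1 and 2 of 10 in Plus A (22.8%). They were 1 and 4 of 10 in Trim A (26.5%), 2 and 4 of 11 in Trim AG (32.8%) and 0 and 4 of 10 in Trim AGU (27.0%).

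Nuclear envelope partners of lamins were described from a list of 17, all listed and tested. Against MC in hypoxia 2 were called higher and 2 lower for miR-125b (21.9% of all genes), and 5 higher and 2 lower for Trim AG (37.2%), shares near those over all genes. *Emd*, the emerin gene, rose by 1.40 for Trim AG (adjusted p = 1.78e-06) and *Lbr*, the lamin B receptor gene, by 1.23 (adjusted p = 9.32e-06), while *Icmt*, an enzyme of lamin maturation, fell by 1.13 (adjusted p = 2.67e-05). In normoxia against miR-125b, *Tmpo*, which encodes lamin-binding proteins, rose by 0.79 for Trim AG (adjusted p = 7.32e-05) and 0.73 for Trim AGU (adjusted p = 0.000624), the groups in which *Lmnb1* rose. *Tmpo* fell in hypoxia against normoxia in all 5 mimics, as *Lmnb1* did, from 0.75 in Plus A (adjusted p = 4.17e-05) to 1.15 in Trim AGU (adjusted p = 0.00425). The list as a whole went both ways there. Called higher and lower were 2 and 1 of 17 in miR-125b (20.9% of all genes) and 1 and 1 in Plus A (22.8%). They were 1 and 2 in Trim A (26.5%), 3 and 4 in Trim AG (32.8%) and 3 and 2 in Trim AGU (27.0%).

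Patterns most like each gene were ranked by Pearson's r over the 11 group means of log2 CPM among 9394 genes, as a description; group means share libraries and depth, and most of the range is the oxygen difference. Near to *Krt7* were *Id2* (r = 0.997) and *Msmo1* (r = 0.996), and nearest to *Krt8* were *Abtb1* (r = 0.972), *Ell* (r = 0.972) and *Gpr108* (r = 0.971). Nearest to *Lmnb1* were *Smc2* (r = 0.996), *Nup85* (r = 0.995) and *Kntc1* (r = 0.995), and nearest to *Synm* were *Glb1l2* (r = 0.994), *Sh3bp4* (r = 0.992) and *Flt1* (r = 0.992). Nearest to *Des* were *Tdp1* (r = 0.986), *Apeh* (r = 0.975) and *Slc41a3* (r = 0.973). *Vim* and *Lmna* had lower best values, with *Eci1* (r = 0.968) and *Pa2g4* (r = 0.933).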

How the data were processed

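Poly-A RNA of H9C2 cells was sequenced in non-stranded libraries. The authors deposited 12 tables, each on a pair of groups: 11 hold raw counts and FPKM per library, and 1 holds group means of normalised counts, a signal without libraries. The submitters' processing notes name HISAT2 and StringTie, with no version; the genome build is not given in the sources used here. The authors' own fold changes and p-values and 66 columns of normalised values per library were not used. Tables were joined by gene identifier, with a count of 0 where a gene was left out; a gene left out had at most 1 count elsewhere. Titles Trim 1, Trim 2 and Trim 3 were read as Trim A, Trim AG and Trim AGU.

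Each comparison was fitted on its own libraries with edgeR 4.0.16 in R 4.3.3 (TMM, filterByExpr, quasi-likelihood test), with SE computed from the log2 fold change and F. Interactions used 4 groups. Alternatives were DESeq2 1.42.0, no filter, all libraries in 1 fit, a replicate block and each library left out. The steps were tested on simulated data. Named were all members, called list genes of at least 1 CPM (at most 4 per list and comparison) and the 3 nearest patterns among genes of at least 5 CPM (log2 of CPM + 0.5), of which 1 is not reported here. The members and lists were chosen with earlier results of these data known. Without strand, overlapping and antisense genes share reads. Python 3.11.15 with pandas 2.3.3 joined the tables, numpy 2.4.6 gave the likeness values and matplotlib 3.10.9 the figures.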

Additional observations from a re-analysis of the deposited data

Results flagged for a closer look

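3 results were picked out because an isomiR's difference from miR-125b differed between hypoxia and normoxia by a test of the interaction. For *Krt8* the interaction was -0.72 on the log2 scale for Trim A and -1.29 for Trim AG, and for *Des* it was -0.73 for Trim AG. The differences from miR-125b in hypoxia and normoxia were -0.81 and -0.09 for *Krt8* in Trim A, -1.37 and -0.08 for *Krt8* in Trim AG, and -0.01 and 0.70 for *Des* in Trim AG. All 3 come from CPM known when the genes were chosen, so each is a description and none is independent support. The call of *Krt8* for Trim A was lost under the replicate block and in 8 of 12 fits with 1 library left out. The call of *Des* was lost by DESeq2, with no filter, with all libraries in 1 fit, under the block and in 9 of 12 such fits, and that of *Krt8* for Trim AG in none of these. Groups of 3 libraries were not screened for single outlying values.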

How the results depend on the processing

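The limits are 3 libraries a group, the low counts of *Des*, and libraries that stood apart. Of the called differences of single genes none changed direction under any alternative. By DESeq2, 1 member was called for Plus A and 2 for Trim AGU against MC in hypoxia, and 1 in the interaction with Trim AG. With all libraries in 1 fit, 2 were called for Trim AGU against MC and 1 in the interaction with Trim AG, and with no filter on low counts 1 in that interaction; the member lost in that interaction was *Des* each time. With replicate 1 of both groups left out, 1 was called for Plus A against miR-125b in normoxia.

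With the replicate number as a block, 0 members were called in the interaction with Trim A and 1 in that with Trim AG, and the block changed no other count by over 1.5 times. Same-numbered libraries did not deviate together: correlations of their deviations ran from -0.284 to 0.123, and in 0 of 18 comparisons was every one over 0.1.

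With 1 library left out, members called ranged from 0 to 1 for miR-125b, 1 to 2 for Plus A and 0 to 2 for Trim AGU against MC in hypoxia. Against miR-125b in hypoxia they ranged from 1 to 2 in Trim A and 0 to 1 in Trim AGU, and from 0 to 2, 1 to 2 and 0 to 1 in the interactions with Trim A, Trim AG and Trim AGU.

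Counts over all genes moved more. edgeR and DESeq2 called in hypoxia 132 and 304 genes (Trim A) and 565 and 1283 (Trim AGU) against miR-125b, 0 and 1 for Plus A and 61 and 127 for Trim A in normoxia, and 3 and 73, 94 and 373, and 150 and 763 in the interactions with Plus A, Trim A and Trim AGU. Under the block these were 7 and 54 in hypoxia and 0, 0 and 15 in the interactions, and hypoxia against normoxia in Trim AGU went from 3995 to 2445. All libraries in 1 fit gave 5373 against 3570 for Trim AGU against MC, 128 against 307 (Plus A), 211 against 132 (Trim A) and 2356 against 565 (Trim AGU) for isomiRs against hypoxic miR-125b, 6093 against 3995 for hypoxia against normoxia in Trim AGU, and 0 and 1594 in the interactions with Plus A and Trim AGU. No filter gave 112 for Trim A in normoxia and 13 and 219 in the interactions with Plus A and Trim A. With 1 library left out, counts over all genes moved by over 1.5 times in 10 of 22 comparisons: from 3570 to 1457 without Hypoxia MC replicate 3 for Trim AGU against MC; in hypoxia against miR-125b from 307 to 165 without Hypoxia miR-125b replicate 1 (Plus A), 132 to 12 without Hypoxia miR-125b replicate 3 or 975 without Hypoxia Trim A replicate 1, and 565 to 27 without Hypoxia miR-125b replicate 1 or 1477 without Hypoxia Trim AGU replicate 1; from 3995 to 1837 without Normoxia Trim AGU replicate 3 for hypoxia against normoxia. They ranged in normoxia from 0 to 4 (Plus A) and 19 to 90 (Trim A), and in the interactions from 0 to 6 (Plus A), 0 to 1141 (Trim A) and 11 to 2250 (Trim AGU). Without replicate 1 of both groups, 166 were called for Plus A in normoxia in place of 0. The cause was not tested.

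CPM of TMM-adjusted libraries moved 15 of 88 group means by over 1 SD, and Spearman's rho was lower by over 0.1 for 5 of 21 likeness values.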
